A study of Arabidopsis thaliana with 35 samples.

Results

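The 9 genes of proline synthesis, breakdown and transport were followed through drought in shoots of Arabidopsis thaliana that had been treated with ethanol or water. They were taken by their gene identifiers as P5CS1, P5CS2, P5CR, ProDH1, ProDH2, P5CDH, OAT, ProT1 and ProT2, so that 9 of the 27417 genes in the count table were read and all 9 had enough counts to be tested in every comparison. The 35 libraries were from shoots of wild-type Col-0 plants, 5 in each of 7 groups. Pots stood in 10 mM ethanol (ethanol-treated plants) or in water (water-treated plants) for 3 days, after which watering was stopped, and shoots were taken at 0, 10 and 13 days after the start of drought (DAD). The seventh group was taken before the pretreatment. All groups shared the wild-type background, the ceramic-based granular soil and the organ, and plants kept watered to 10 or 13 DAD were not analysed here. The comparison of ethanol with water at the same DAD shows the difference that followed the pretreatment. At 10 and 13 DAD a direct effect of ethanol and a different state of drought cannot be told apart in it. The comparison of later with earlier DAD within a pretreatment shows the change with drought, in which drought and plant age cannot be told apart.

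Proline is a small amino acid that many plants accumulate in large amounts when water is short, and it serves as a compatible solute that lowers the water potential of the cell without disturbing its proteins. In Arabidopsis it is made from glutamate by Δ1-pyrroline-5-carboxylate synthetase (P5CS), whose isoforms P5CS1 and P5CS2 carry out the committed reactions, and by the reductase P5CR. In mitochondria the proline dehydrogenases ProDH1 and ProDH2 and the dehydrogenase P5CDH turn it back into glutamate, ornithine aminotransferase (OAT) feeds the pathway from ornithine, and ProT1 and ProT2 carry proline across the plasma membrane. ProDH1 is known as a gene that is repressed when plants dehydrate and induced by proline and on rewatering.

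In the reference annotation (TAIR10.1), P5CS1 (AT2G39800) lies at chr2:16598072-16603319 and P5CS2 (AT3G55610) at chr3:20624020-20629295, each in 20 exons on the minus strand. P5CR (AT5G14800, chr5:4785960-4787996), ProDH1 (AT3G30775, chr3:12448636-12451556, listed as ERD5), P5CDH (AT5G62530, chr5:25099003-25103312, listed as ALDH12A1) and OAT (AT5G46180, chr5:18718417-18721744) are also on the minus strand, and ProDH2 (AT5G38710, chr5:15501126-15504269), ProT1 (AT2G39890, chr2:16655577-16658412) and ProT2 (AT3G55740, chr3:20695433-20698292) are on the plus strand. P5CS1 and P5CS2 were 86.0% identical over 2210 aligned transcript bases with a longest shared run of 53 bases, ProT1 and ProT2 were 83.0% identical with a run of 26 bases, and ProDH1 and ProDH2 were 76.8% identical with a run of 17 bases. The P5CDH gene overlaps SRO5, on the opposite strand, by 905 bases at the ends of both genes, a pair known in Arabidopsis for antisense transcripts under salt stress. P5CS1 and P5CS2 overlap other genes on the opposite strand by 91 and 32 bases. The authors counted reads by strand, so reads of such pairs are held apart as far as the libraries keep strand.

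The 250 bases upstream of the annotated start of 5 members are shown because they are the members called between the pretreatments at 13 DAD and again when the steps from 10 to 13 DAD were compared. Sequences are from RefSeq, build TAIR10.1, and are written 5′ to 3′ on the minus strand that the genes are on, from chr2:16603320-16603569 (P5CS1), chr3:20629296-20629545 (P5CS2), chr5:4787997-4788246 (P5CR), chr3:12451557-12451806 (ProDH1) and chr5:25103313-25103562 (P5CDH). Capitals mark matches to ACTCAT, the proline-responsive element known from ProDH promoters (ATGAGT when it reads on the other strand), or to CCGAC, the core of the dehydration-responsive element (GTCGG when it reads on the other strand).
P5CS1: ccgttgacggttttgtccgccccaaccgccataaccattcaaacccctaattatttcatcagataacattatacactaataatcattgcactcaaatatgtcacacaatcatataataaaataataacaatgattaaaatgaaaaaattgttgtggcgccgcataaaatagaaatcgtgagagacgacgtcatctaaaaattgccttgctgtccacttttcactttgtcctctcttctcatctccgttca
P5CS2: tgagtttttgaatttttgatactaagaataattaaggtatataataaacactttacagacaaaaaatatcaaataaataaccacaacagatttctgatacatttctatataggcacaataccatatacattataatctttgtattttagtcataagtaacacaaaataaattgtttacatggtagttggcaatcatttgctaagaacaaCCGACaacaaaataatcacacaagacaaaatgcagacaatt
P5CR: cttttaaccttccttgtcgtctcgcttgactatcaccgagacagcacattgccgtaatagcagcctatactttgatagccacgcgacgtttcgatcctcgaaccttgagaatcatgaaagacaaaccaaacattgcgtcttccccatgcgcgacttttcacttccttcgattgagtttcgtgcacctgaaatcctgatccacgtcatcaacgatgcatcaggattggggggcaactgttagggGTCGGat
ProDH1: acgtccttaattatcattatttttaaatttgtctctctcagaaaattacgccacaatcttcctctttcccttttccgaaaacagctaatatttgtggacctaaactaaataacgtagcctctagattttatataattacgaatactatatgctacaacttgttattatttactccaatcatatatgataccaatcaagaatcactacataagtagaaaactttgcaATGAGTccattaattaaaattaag
P5CDH: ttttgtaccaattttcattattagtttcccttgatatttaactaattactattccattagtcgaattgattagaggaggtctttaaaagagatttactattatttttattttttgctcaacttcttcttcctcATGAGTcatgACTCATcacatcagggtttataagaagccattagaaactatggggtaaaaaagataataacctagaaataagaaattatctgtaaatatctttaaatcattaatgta
ATGAGT was found in the ProDH1 window at positions -24 to -19 from the start, and the P5CDH window held ATGAGT at -117 to -112 and ACTCAT at -107 to -102. CCGAC was found in the P5CS2 window at -41 to -37, and GTCGG in the P5CR window at -7 to -3. ACTCAT or its reverse was in 12.3% and CCGAC or its reverse in 12.0% of 27443 windows of this length. The abscisic acid-responsive elements ACGTGGC and ACGTGTC and the G-box CACGTG, searched on both strands, were in none of the 9 members' windows and in 3.37%, 3.68% and 6.49% of all windows, and no window showed overlapping matches. A match gives only where these letters stand.

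Libraries held 3589540 to 13440389 counts in total, and totals did not differ between ethanol- and water-treated plants beyond their spread (exact permutation test, 2-sided, p = 0.825 at 13 DAD, p = 0.119 at 10 DAD and p = 0.135 at 0 DAD, n = 5 each). Summed normalized counts of 4 green-tissue markers (RBCS1A, CAB1, LHCB2.1 and RCA) were 347570 to 491216 in the groups without drought, 133987 to 328171 at 10 DAD and 14350 to 55010 at 13 DAD, while 5 root markers summed to at most 18.1, with 1 to 3 of them at 0 in every library of a group, and 4 flower markers to at most 114.4. At 13 DAD the green-tissue sum was 18649 to 55010 in ethanol-treated plants and 14350 to 20619 in water-treated plants. At 10 DAD libraries 4 and 5 of each pretreatment had the lowest sums of their group, 175898 and 133987 in ethanol-treated plants and 170731 and 229177 in water-treated plants. When the counts were scaled by library total alone, the median log2 fold change of all genes between ethanol and water at 13 DAD was 0.30 instead of 0.04, and 2243 genes were called higher and 457 lower, against 1353 and 736 with TMM scaling. The same change of scaling moved that median to 0.15 from 0.02 for 10 against 0 DAD after water, and after ethanol to 0.24 from 0.01 for 10 against 0 DAD, to 0.13 from 0.02 for 13 against 10 DAD and to 0.33 from 0.03 for 13 against 0 DAD. Fold changes below are relative to TMM scaling. As these are bulk shoots, fewer cells of a type and less RNA per cell cannot be told apart.

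At 13 DAD most of the proline genes were lower in ethanol-treated plants than in water-treated plants. By edgeR's quasi-likelihood test with Benjamini-Hochberg adjustment over 15394 genes, 5 of the 9 members were called lower (adjusted p under 0.1 and at least 2-fold, a log2 value of -1 or less) and 0 were called higher, where 4.78% of all genes were called lower and 8.79% higher. The 5 were both synthetases, the reductase P5CR, and ProDH1 and P5CDH of the breakdown route. The median log2 fold change of the 9 members was -1.02, beside 0.04 over all genes tested. The normalized counts of ethanol-treated plants all lay below those of water-treated plants for 7 of the 9 members, and 13.2% of all genes showed this. On counts relative to the library total 6 members and 5.78% of all genes did.

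P5CS2, the synthetase isoform that is known in Arabidopsis as the housekeeping one, differed most. Its normalized counts at 13 DAD were 331, 560, 570, 1151 and 879 in the 5 libraries of ethanol-treated plants, against 6240, 6961, 8416, 7750 and 5698 in those of water-treated plants. The highest ethanol library was thus far below the lowest water library. The log2 fold change was -3.28 ± 0.30 (SE, adjusted p = 1.61e-05), that is 9.71-fold lower, and only 28 of the 15394 genes tested had a lower fold change.

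P5CS1, the isoform known for making most of the proline under stress, had normalized counts of 1537, 2863, 4666, 4482 and 3811 in ethanol-treated plants, against 7743, 6813, 6974, 7467 and 7505 in water-treated plants at 13 DAD. The groups did not overlap, but the ethanol libraries lay far apart from each other and the water libraries close together. The log2 fold change was -1.02 ± 0.23 (adjusted p = 0.00406), and it was under the 2-fold limit without ethanol library 1 (-0.84, adjusted p = 0.000355), without ethanol library 2 (-0.96, adjusted p = 0.0119) and when scaled by library total alone (-0.78, adjusted p = 0.0101). P5CR, which completes the synthesis, had 196, 155, 164, 261 and 261 normalized counts in ethanol-treated plants and 509, 523, 581, 538 and 545 in water-treated plants, with no overlap (log2 fold change -1.32 ± 0.15, adjusted p = 1.39e-05).

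Of the breakdown genes, ProDH1 and P5CDH were lower as well. ProDH1, whose enzyme starts proline oxidation, had 99.8, 113, 73.5, 128 and 99.6 normalized counts in ethanol-treated plants, against 203, 457, 281, 258 and 192 in water-treated plants (log2 fold change -1.38 ± 0.22, adjusted p = 0.00026). P5CDH had 221, 297, 252, 370 and 420 in ethanol-treated plants, against 813, 845, 919, 895 and 933 in water-treated plants (log2 fold change -1.44 ± 0.15, adjusted p = 8.41e-06). Neither gene's groups overlapped. SRO5, on the strand opposite P5CDH, had 28.8 to 61.7 normalized counts in ethanol-treated plants and 105 to 244 in water-treated plants at 13 DAD, and 1.8 to 23.0 in the other groups. ProDH2, the minor dehydrogenase, did not pass the test, with 20.5 to 67.0 normalized counts in ethanol-treated plants and 38.3 to 120 in water-treated plants (log2 fold change -0.45 ± 0.34, adjusted p = 0.327).

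OAT and ProT2 passed the false discovery rate but not the 2-fold limit. OAT had 569, 597, 687, 677 and 744 normalized counts in ethanol-treated plants and 1063, 1396, 1058, 1144 and 1170 in water-treated plants (log2 fold change -0.78 ± 0.11, adjusted p = 0.000107). ProT2 had 144 to 176 in ethanol-treated plants and 192 to 253 in water-treated plants (log2 fold change -0.44 ± 0.13, adjusted p = 0.0152), and by library total its value was -0.18 (adjusted p = 0.306). ProT1 did not pass, with 104 to 152 in ethanol-treated plants and 104 to 151 in water-treated plants (log2 fold change -0.10 ± 0.16, adjusted p = 0.687).

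**Figure D1:**
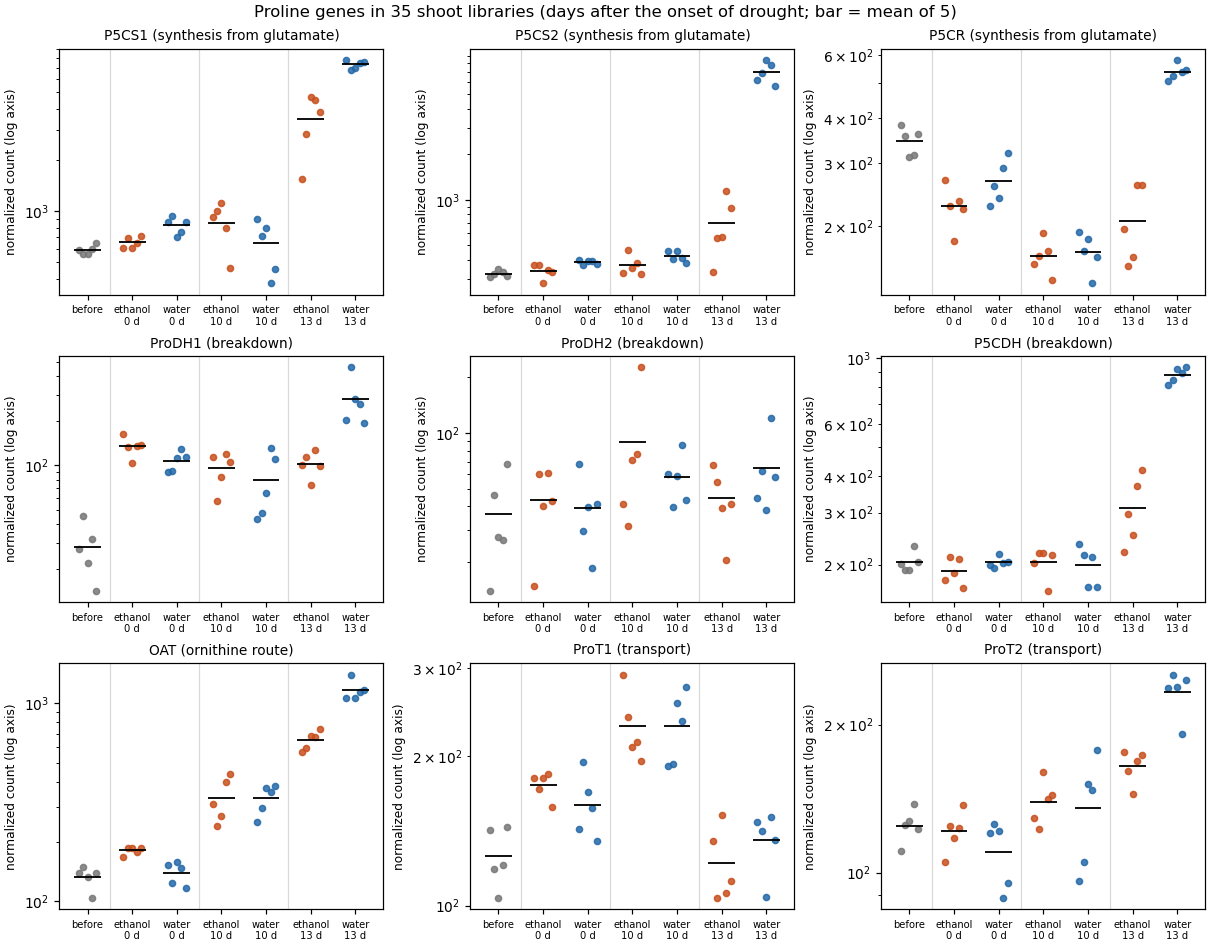
Normalized counts (log axis) of the 9 proline genes in each of the 35 libraries, one panel for each gene with its own axis range, by group along the horizontal axis; points are libraries and the bar is the mean of 5. At 13 days the P5CS2 points of ethanol-treated plants (331 to 1151) lie far below those of water-treated plants (5698 to 8416), while those of ProT1 overlap (104 to 152 and 104 to 151).

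At 10 and 0 DAD no member passed the test between the pretreatments. At 10 DAD edgeR called 0 of the 9 members (0 at an unadjusted p under 0.05, and 0 called by DESeq2), where 0.0247% of 16171 genes were called higher and 0.0433% lower. P5CS1 had 920, 1002, 1112, 791 and 460 normalized counts in ethanol-treated plants and 898, 716, 800, 376 and 455 in water-treated plants (log2 fold change 0.41 ± 0.29, adjusted p = 0.741), so that both groups were lowest in the library or libraries with the least green-tissue marker counts. The part of those libraries in this comparison was not tested, and without libraries 4 and 5 of both groups the value was 0.35 (adjusted p = 0.193). At 0 DAD, after 3 days of ethanol, 0 of the 9 members were called by edgeR or DESeq2, where 0.0696% of 17242 genes were called higher and 0.029% lower, and 3 members had an unadjusted p under 0.05. The calls over all genes at 0 DAD were 12 higher and 5 lower, and they were 27 and 11 without ethanol library 1 and 2 and 2 without ethanol library 4. Those at 10 DAD were 4 and 7, and they were 14 and 30 without water library 4 and 0 and 0 without ethanol library 4. No member was called at 0 or 10 DAD when any one library was left out. The 3 members at 0 DAD were P5CS1 at a log2 fold change of -0.32 ± 0.10 (adjusted p = 0.146), OAT at 0.38 ± 0.12 (adjusted p = 0.188) and ProDH1 at 0.34 ± 0.14 (adjusted p = 0.366). OAT was the single member without overlap at 0 DAD, with 167 to 186 normalized counts in ethanol-treated plants and 117 to 158 in water-treated plants, a higher position that 1.53% of all genes showed and that overlapped when counts were taken relative to the library total.

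**Figure D2:**
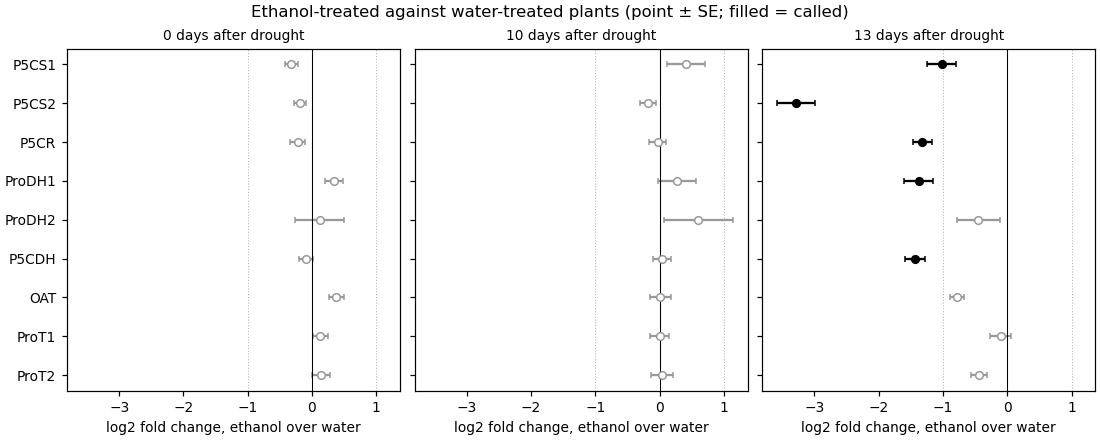
Log2 fold change of ethanol-treated over water-treated plants for the 9 genes at 0, 10 and 13 days after drought, with SE; filled points were called (adjusted p under 0.1 and at least 1 in size) and dotted lines stand at -1 and 1. All filled points are at 13 days, from P5CS2 at -3.28 to P5CS1 at -1.02.

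In water-treated plants most of the proline genes rose by 13 DAD, and OAT alone was called at 10 DAD. Against 0 DAD, 7 of the 9 members were called higher at 13 DAD and 0 lower, where 22.6% of 16851 genes were called higher and 30.0% lower. The median log2 fold change of the members was 1.39, beside -0.05 over all genes. For 7 members all 13 DAD libraries were above all 0 DAD libraries, which 30.9% of genes showed.

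All 3 synthesis genes rose. P5CS1 had 868, 940, 704, 749 and 860 normalized counts at 0 DAD, 898, 716, 800, 376 and 455 at 10 DAD and 7743, 6813, 6974, 7467 and 7505 at 13 DAD in water-treated plants. P5CS2 had 370 to 402 at 0 DAD, 381 to 460 at 10 DAD and 5698 to 8416 at 13 DAD. Both genes thus rose between 10 and 13 DAD, and at 10 DAD neither differed from 0 DAD by the test (adjusted p = 0.256 and 0.174). From 13 against 0 DAD the log2 fold change was 3.16 ± 0.11 for P5CS1 (adjusted p = 2.85e-16) and 4.20 ± 0.12 for P5CS2 (adjusted p = 2.39e-17). P5CR fell by 0.61 on the log2 scale at 10 against 0 DAD (adjusted p = 0.000761, under the 2-fold limit) and was higher at 13 than at 0 DAD, with a log2 fold change of 1.03 ± 0.11 (adjusted p = 3.04e-08) that was 0.98 without water library 1 and 0.99 without water library 3 of 0 DAD.

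OAT was the single member called at 10 against 0 DAD in water-treated plants, where 6.26% of 16694 genes were called higher and 10.6% lower. Its normalized counts were 252, 296, 374, 355 and 382 at 10 DAD, against 152, 124, 158, 147 and 117 at 0 DAD, with no overlap (log2 fold change 1.29 ± 0.14, adjusted p = 6.87e-07). It rose further, with a log2 fold change of 3.07 ± 0.12 for 13 against 0 DAD (adjusted p = 1.53e-15). Of the breakdown genes, P5CDH kept 168 to 234 normalized counts at 0 and 10 DAD and reached 813 to 933 at 13 DAD (13 against 0 DAD, log2 fold change 2.13 ± 0.10, adjusted p = 3.26e-14).

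ProDH1 had 89.8, 92.1, 112, 129 and 114 normalized counts at 0 DAD, 43.3, 47.7, 64.7, 130 and 110 at 10 DAD and 203, 457, 281, 258 and 192 at 13 DAD in water-treated plants. Every library at 13 DAD was above every earlier one (13 against 0 DAD, log2 fold change 1.39 ± 0.20, adjusted p = 4.34e-06). At 10 DAD the libraries split, with libraries 4 and 5 at the 0 DAD level and the other libraries below it. The log2 fold change of 10 against 0 DAD was -0.38 ± 0.26 (adjusted p = 0.252), and without libraries 4 and 5, left out after the data were seen, it was -0.99 (adjusted p = 0.00091). ProDH2 did not pass the 2-fold limit at 13 against 0 DAD (log2 fold change 0.70 ± 0.34, adjusted p = 0.0698).

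The transporters went different ways in water-treated plants. ProT2 had 89 to 125 normalized counts at 0 DAD, 96 to 178 at 10 DAD and 192 to 253 at 13 DAD (13 against 0 DAD, log2 fold change 1.09 ± 0.14, adjusted p = 4.5e-07). ProT1 had 135 to 194 at 0 DAD, 191 to 275 at 10 DAD and 104 to 151 at 13 DAD. Its log2 fold change was 0.56 ± 0.14 for 10 against 0 DAD (adjusted p = 0.00294) and -0.82 ± 0.15 for 13 against 10 DAD (adjusted p = 8.47e-05), both under the 2-fold limit.

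Over the last 3 days alone, 13 against 10 DAD, 6 of the 9 members were called higher in water-treated plants and 0 lower, where 17.9% of 15856 genes were called higher and 25.6% lower. The log2 fold changes were 4.0 ± 0.14 for P5CS2, 3.44 ± 0.21 for P5CS1, 2.09 ± 0.13 for P5CDH, 1.76 ± 0.13 for OAT, 1.74 ± 0.33 for ProDH1 and 1.62 ± 0.12 for P5CR, with adjusted p between 2.95e-15 and 0.000371. The count was also 6 without libraries 4 and 5 of 10 DAD, with P5CS1 at 3.17 and ProDH1 at 2.39. ProT2 reached 0.73 ± 0.17 (adjusted p = 0.000663) and ProDH2 0.08 ± 0.30 (adjusted p = 0.826).

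In ethanol-treated plants fewer of these genes rose. At 10 against 0 DAD edgeR and DESeq2 called 0 of the 9 members, where edgeR called 5.74% of 16918 genes higher and 11.8% lower. At an FDR under 0.1 with no minimum fold change, 2 members were higher and 2 lower, where 25.7% and 26.9% of all genes were. An unadjusted p under 0.05 was reached by 4 members. Of these OAT had the largest log2 fold change, 0.89 ± 0.14 (adjusted p = 3.36e-05), with 241 to 439 normalized counts at 10 DAD, against 167 to 186 at 0 DAD, and by library total alone it was called, at 1.14 (adjusted p = 2.5e-05). P5CS1 was at 0.40 ± 0.19 (adjusted p = 0.109) with every library in and did not pass. Without libraries 4 and 5 of 10 DAD, left out after the data were seen, it was 0.66 (adjusted p = 1.57e-05), under the 2-fold limit. At 13 against 10 DAD only P5CS1 was called by edgeR, higher with a log2 fold change of 2.03 ± 0.31 (adjusted p = 0.000163), where 12.9% of 16430 genes were called higher and 17.9% lower. Leaving out libraries 4 and 5 of 10 DAD gave 2 called higher, P5CS1 at 1.77 and OAT at 1.25, and 1 called lower, ProT1 at -1.02. OAT at 0.99 ± 0.16 (adjusted p = 8.58e-05), P5CS2 at 0.92 ± 0.28 (adjusted p = 0.0145) and ProT1 at -0.90 ± 0.15 (adjusted p = 0.000156) were all close to the 2-fold limit with every library in. Single libraries decided the calls of OAT, P5CS2 and ProDH2. OAT was called without ethanol library 4 or 5 of 10 DAD (1.07 and 1.09) and without ethanol library 1 or 2 of 13 DAD (1.05 and 1.03), and P5CS2 without ethanol library 2 of 10 DAD (1.03) and without ethanol library 1 or 2 of 13 DAD (1.11 and 1.0), and ProDH2 was called lower without ethanol library 1 or 2 of 10 DAD (-1.14 and -1.19).

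From 0 to 13 DAD, 3 of the 9 members were called higher in ethanol-treated plants and 0 lower, where 19.5% of 17093 genes were called higher and 24.8% lower. The log2 fold change of 13 against 0 DAD was 2.47 ± 0.25 for P5CS1 (adjusted p = 1.04e-06), 1.93 ± 0.12 for OAT (adjusted p = 7.02e-10) and 1.12 ± 0.27 for P5CS2 (adjusted p = 0.00291). P5CS2 was at 0.87 without ethanol library 4 of 13 DAD and then no longer called. P5CDH reached 0.79 ± 0.17 (adjusted p = 0.000726), and by library total alone 1.07 (adjusted p = 3.07e-05), which made it the fourth member called. ProDH1 was at -0.32 ± 0.17 (adjusted p = 0.111). The 5 ethanol libraries of 13 DAD were not alike. Libraries 4 and 5, with the lowest green-tissue marker sums of the group (20812 and 18649), had the highest counts of P5CS2, P5CR and P5CDH, and library 1, with a green-tissue sum of 34098, had the lowest counts of both synthetases and of P5CDH. Library 3, with the highest green-tissue sum (55010), had the highest P5CS1. The part of these differences in the results was not tested.

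The difference between the pretreatments over the last step was itself tested as an interaction. The rise from 10 to 13 DAD was smaller in ethanol-treated than in water-treated plants for 5 of the 9 members, and larger for 0, where 4.06% of 17083 genes were called lower and 8.61% higher by this test. The log2 difference of the steps, ethanol minus water, was -3.11 ± 0.31 for P5CS2 (adjusted p = 1.6e-06), -1.67 ± 0.40 for ProDH1 (adjusted p = 0.00608), -1.50 ± 0.21 for P5CDH (adjusted p = 3.37e-05), -1.45 ± 0.39 for P5CS1 (adjusted p = 0.0128) and -1.30 ± 0.20 for P5CR (adjusted p = 9.32e-05). OAT was at -0.80 ± 0.21 (adjusted p = 0.0094) and ProT2 at -0.51 ± 0.21 (adjusted p = 0.0989), both under the 2-fold limit, and ProT1 at -0.12 ± 0.21 (adjusted p = 0.758). The 5 members called here are those called between the pretreatments at 13 DAD, a comparison that shares its 13 DAD libraries with this one. For the earlier step, from 0 to 10 DAD, edgeR and DESeq2 called 0 of the 9 members, where edgeR called 0.0228% of 17531 genes higher and 0.097% lower, and 1 member, P5CS1, had an unadjusted p under 0.05 (log2 difference 0.73 ± 0.32, adjusted p = 0.494). Without libraries 4 and 5 of 10 DAD, left out after the data were seen, it was 0.65 (adjusted p = 0.0406). That value is past the false discovery rate and under the 2-fold limit. Over all genes 4 were called higher and 17 lower for this step, and without ethanol library 2 of 10 DAD 7 and 41.

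**Figure D3:**
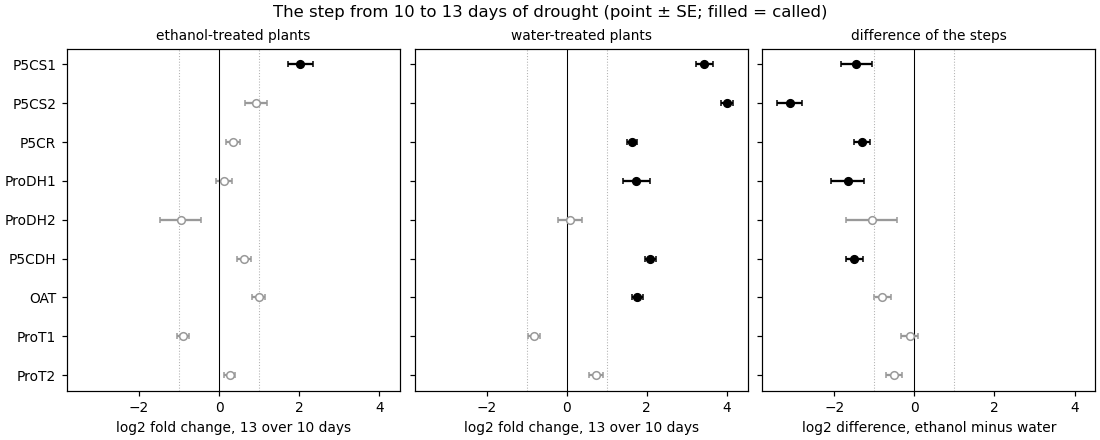
Change between 10 and 13 days of drought in the 9 genes, as log2 fold change with SE after ethanol (left) and after water (middle), and the difference of the steps (ethanol minus water); filled points were called. In ethanol-treated plants only P5CS1 is filled (2.03), in water-treated plants 6 genes are, and in the difference 5 genes are, with P5CS2 farthest to the left at -3.11.

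P5CS2 held 10.9 to 20.4% of the summed P5CS1 and P5CS2 counts in ethanol-treated plants at 13 DAD, against 43.2 to 54.7% in water-treated plants at 13 DAD, with no overlap. In all other groups the share was 24.0 to 52.3%. The shares are of counts and were not corrected for length, the longest transcripts being 2886 bases for P5CS1 and 2745 for P5CS2. Within a library the counts of both synthetases over the counts of both dehydrogenases had a median ratio of 33.3 (11.2 to 46.4) in ethanol-treated plants and 48.2 (26.5 to 56.4) in water-treated plants at 13 DAD. At 10 DAD this ratio was 2.36 to 16.5 in ethanol-treated plants and 3.64 to 13.2 in water-treated plants, at 0 DAD it was 5.11 to 6.16 in ethanol-treated plants and 7.26 to 10.8 in water-treated plants, and before the pretreatment it was 9.58 to 21.8. The median ratio was highest at 13 DAD in both pretreatments, whose ranges overlapped. After ethanol the 13 DAD range also overlapped those at 10 DAD and before the pretreatment, and after water it lay above every earlier group. The lowest values at 10 DAD were in libraries 4 and 5. These ratios were derived from counts tested above and are given as a description.

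**Figure D4:**
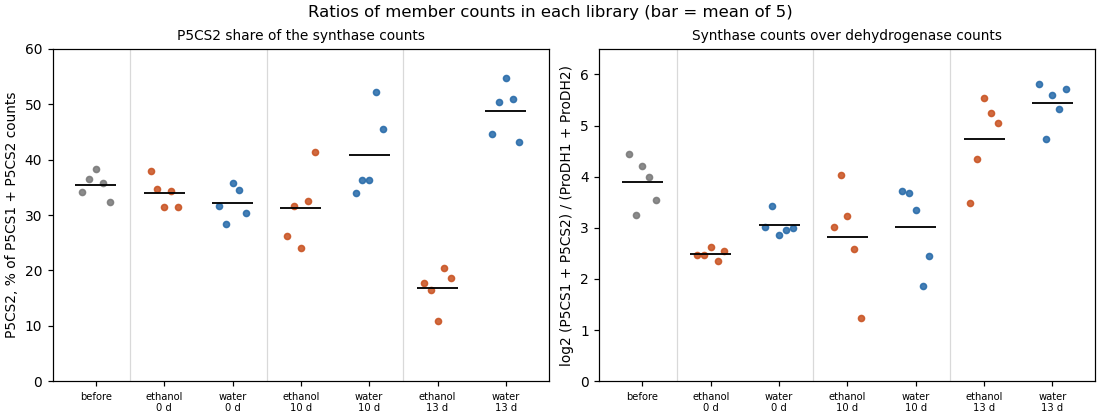
P5CS2 as a percentage of P5CS1 plus P5CS2 counts (left) and log2 of synthetase counts over dehydrogenase counts (right) in each of the 35 libraries, by group, with the mean of 5 as a bar. At 13 days the P5CS2 share is 10.9 to 20.4% in ethanol-treated and 43.2 to 54.7% in water-treated plants, whereas the ranges on the right overlap.

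The 3 days of pretreatment themselves went with a rise of ProDH1 in both arms, in which the pretreatment and 3 days of growth cannot be told apart. ProDH1 had 162, 134, 104, 134 and 138 normalized counts after ethanol, against 27.3, 45.9, 22.0, 32.1 and 14.3 before the pretreatment (log2 fold change 2.25 ± 0.23, adjusted p = 9.55e-08). After water it had 89.8, 92.1, 112, 129 and 114 (log2 fold change against the same earlier libraries 1.92 ± 0.23, adjusted p = 2.38e-06). ProDH1 was the single member called in each of these comparisons, where 1.77% of 17084 genes were called higher and 2.15% lower after ethanol, and 1.02% of 17203 genes were called higher and 1.34% lower after water. The other members changed by less than 2-fold. P5CR fell by 0.60 on the log2 scale after ethanol (adjusted p = 0.000248) and by 0.37 after water (adjusted p = 0.0166), and P5CS1 rose by 0.48 ± 0.09 after water (adjusted p = 0.000485) and was at 0.16 ± 0.09 after ethanol (adjusted p = 0.209).

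By mean level, 7 of the 9 members were highest in water-treated plants at 13 DAD. Order and overlap were read for the 9 members only, with no share of all genes, so these counts show no excess by themselves. For each of the 7, the highest group was not overlapped by the group next in order. That group was ethanol-treated plants at 13 DAD for P5CS1, P5CS2, P5CDH, OAT and ProT2, ethanol-treated plants at 0 DAD for ProDH1, and the plants before the pretreatment for P5CR. Below it, neighbouring groups overlapped throughout for P5CS2, P5CR, ProDH1 and ProT2. ProT1 was highest at 10 DAD, with means of 229 in ethanol-treated and 230 in water-treated plants, and ProDH2 had its highest mean in ethanol-treated plants at 10 DAD, where 1 library stood at 226 and the others at 31.2 to 76.9.

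Of 47 other genes in or around the pathway, 42 were tested at 13 DAD, and 6 were higher and 4 lower in ethanol-treated than in water-treated plants, where 8.79% of all genes were called higher and 4.78% lower, with a median log2 fold change of -0.13 beside 0.04 over all genes. Of 22 tested genes of glutamate, ornithine and arginine supply, 4 were higher and 1 was lower in ethanol-treated plants. The largest positive log2 fold change was that of GDH3, a glutamate dehydrogenase, at 3.52 ± 0.59 (adjusted p = 0.000329). GDH3 had 10.8 to 40.7 normalized counts in ethanol-treated plants and 0.0 to 5.6 in water-treated plants. Next were the arginase ARGAH2 at 2.96 ± 0.53 (adjusted p = 0.00235) and the cytosolic glutamine synthetase GLN1;4 at 2.61 ± 0.26 (adjusted p = 1.75e-05). The one that was lower was another glutamate dehydrogenase, GDH2, at -1.30 ± 0.16 (adjusted p = 2.31e-05). Of 7 tested transporters the amino acid permeases AAP6 and AAP2 were higher, at 2.18 ± 0.42 and 1.74 ± 0.16. The permease AAP1 was lower, at -1.46 ± 0.19. AAP1 had 2272 to 4809 normalized counts in ethanol-treated plants and 9174 to 12519 in water-treated plants.

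Of 9 regulators, the bZIP transcription factors bZIP1 and bZIP11 were lower, at -1.81 ± 0.34 (adjusted p = 0.00284) and -1.05 ± 0.25 (adjusted p = 0.00703). The value of bZIP11 was close to the 2-fold limit. Both factors belong to the S1 group of bZIP factors, known in Arabidopsis to bind the ACTCAT element and to act on ProDH genes when sugar is short. bZIP1 had 99.8 to 272 normalized counts in ethanol-treated plants and 509 to 1420 in water-treated plants at 13 DAD. Of the 4 genes of the GABA shunt, a side route of glutamate breakdown, 0 were called by edgeR or DESeq2, and 2 had an unadjusted p under 0.05. At 10 and 0 DAD edgeR and DESeq2 called 0 of the 47 genes between the pretreatments, of which edgeR tested 46 and 45. Of all genes edgeR called 0.0247% higher and 0.0433% lower at 10 DAD, and 0.0696% and 0.029% at 0 DAD. An unadjusted p under 0.05 was reached by 3 and 12 of the tested genes, with no share of all genes at that limit beside them.

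Through drought in water-treated plants, 16 of 43 tested genes of these lists were higher and 14 lower at 13 than at 0 DAD, where 22.6% of all genes were called higher and 30.0% lower, with a median log2 fold change of 0.41 beside -0.05 over all genes. BAC2, a mitochondrial carrier of basic amino acids such as ornithine and arginine, rose by 5.73 ± 0.16 and AAP1 by 4.41 ± 0.12. In the supply list 6 genes rose, led by the glutamate synthase GLU2 (2.42 ± 0.16), the glutamine synthetase GLN1;3 (2.21 ± 0.13) and GLN1;1 (1.55 ± 0.10), and 11 fell, led by ARGAH2 (-4.51 ± 0.70), the chloroplast glutamine synthetase GLN2 (-2.99 ± 0.12) and the ornithine synthesis gene NAGS2 (-2.72 ± 0.42). Of the transporters AAP6 (-3.45 ± 0.15) and the proline transporter ProT3 (-2.36 ± 0.40) fell. Normalized counts of ProT3 were low, at 20.3 to 30.3 at 0 DAD and 2.6 to 8.8 at 13 DAD. Those of NAGS2 were low as well, at 24.5 to 38.3 and 1.4 to 8.4. The regulators MYB2 (3.97 ± 0.26), bZIP11 (3.54 ± 0.14) and bZIP44 (3.03 ± 0.31) led the 7 of 9 that rose, and in the GABA shunt the transaminase POP2 rose (2.47 ± 0.09) and the glutamate decarboxylase GAD2 fell (-1.35 ± 0.15). In ethanol-treated plants 15 of 46 tested genes of these lists were higher and 14 lower at 13 than at 0 DAD, where 19.5% of all genes were called higher and 24.8% lower, with a median log2 fold change of -0.15 beside 0.03 over all genes. BAC2 rose there by 5.30 ± 0.28 (adjusted p = 1.12e-09), with 611 to 1362 normalized counts at 13 DAD, against 18.6 to 44.1 at 0 DAD, and MYB2 rose by 4.05 ± 0.28 (adjusted p = 7.05e-09).

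Across the 35 libraries and 15243 genes with a mean of at least 20 normalized counts, the genes whose centred log2(normalized count + 1) was closest to a member's were SKP2A, GR1 and AT3G11420 for P5CS1, each with a root mean square difference of 0.42 beside a standard deviation of 1.36 for P5CS1 itself. For ProDH1 they were AT5G18630 (0.61), AT2G24550 (0.64) and ACX4 (0.64), beside 1.0 for ProDH1. The closest gene was A/N-InvC for P5CS2 (0.39 beside 1.49), mMDH2 for P5CR (0.23 beside 0.59), LHT1 for ProDH2 (0.56 beside 0.77), ATCS for P5CDH (0.18 beside 0.76), ALP for OAT (0.21 beside 1.10), AT2G36320 for ProT1 (0.19 beside 0.40) and AME3 for ProT2 (0.20 beside 0.38). With 10 added in place of 1 the nearest gene for P5CS2 was GASA2 (0.28). These likenesses describe levels over groups that share their drought states and libraries.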

How the data were processed

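Total RNA from the shoots of 35 samples was sequenced by the authors with Lasy-Seq. Per the labels and the study's methods, the authors trimmed the R1 reads with Trimmomatic and aligned them with HISAT2 to TAIR10. They then counted the reads with featureCounts by strand, which made the deposited raw counts. A read went to each gene that covered a set minimum fraction of it. Levels and overlap rest on the normalized counts that the authors deposited, a signal equal to the raw count over a scaling factor of each library. The labels and the methods name different RNA kits, which does not alter the groups. The study's methods speak of biological replicates, but no label says that the 5 of a group came from separate pots, and p-values measure the spread between these libraries.

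Each comparison was tested across all genes on its own libraries with R 4.3.3 and edgeR 4.0.16 (TMM, filterByExpr, robust quasi-likelihood F-test, Benjamini-Hochberg adjustment), and SE was taken from the F statistic. A call needed an FDR under 0.1 with an absolute log2 fold change of at least 1. Counts at an unadjusted p under 0.05 are given without the share of all genes at that limit and show no excess by themselves. Alternatives were DESeq2 1.42.0, other scalings, filters and thresholds, a replicate block, a joint fit of all 7 groups and leaving out each library. The fits were checked on simulated data. Of the 27417 gene IDs, 26720 matched the annotation of TAIR10.1, and transcripts were compared with BLAST 2.17.0. P5CR shares 134 bases at 97.0% identity with AT4G20690, whose highest raw count was 37. On the same strand, the other members shared no run of at least 100 bases at 95% identity or more with another gene's mRNA. Sequence shared with genes on the opposite strand, such as that of P5CDH and SRO5, was outside this search.

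The members and lists were chosen with earlier results of these data known. All 9 members are named, with the 3 genes closest to P5CS1 and to ProDH1, the gene closest to each other member, and up to 3 called genes with the largest change per list and direction at 13 DAD against water and at 13 against 0 DAD in water-treated plants. AP3, PI, AG and AP1 were the flower markers and CASP1, CASP2, COBL9, EXPA7 and IRT1 the root markers.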

Additional observations from a re-analysis of the deposited data

Results flagged for a closer look

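For 5 members the change from 10 to 13 DAD differed between the pretreatments in the interaction test (edgeR, adjusted over 17083 genes). The log2 difference, ethanol minus water, was -3.11 for P5CS2 (adjusted p = 1.6e-06), -1.67 for ProDH1 (0.00608), -1.50 for P5CDH (3.37e-05), -1.45 for P5CS1 (0.0128) and -1.30 for P5CR (9.32e-05). All 5 calls held when each of the 20 libraries was left out in turn and when libraries 4 and 5 of 10 DAD were left out.

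In 3 of 63 groups of 5 libraries, 1 library stood apart by Dixon's test, which chance gives for about 1 group in 20. ProDH2 was at 226.3 normalized counts in library 5 of ethanol-treated plants at 10 DAD (gap over range 0.766), and at 119.8 in library 4 of water-treated plants at 13 DAD (0.71). ProT2 was lowest at 191.6 in library 4 of water-treated plants at 13 DAD (0.745).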

How the results depend on the processing

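Over 1116 member results under alternatives other than leaving out a library, 1076 kept their side of the threshold, and 1336 of 1350 did when a library was left out, with no called value changing sign. A value that was not called and lay within 1 SE of 0 was taken to have no direction. At an FDR under 0.1 with no minimum fold change, members called higher and lower (shares of all genes in parentheses) were 2 and 1 at 10 against 0 DAD in water-treated plants (26.2% and 25.2%), 2 and 2 at 10 against 0 (25.7% and 26.9%), 5 and 1 at 13 against 10 (31.1% and 30.3%) and 5 and 1 at 13 against 0 DAD (36.9% and 35.5%) in ethanol-treated plants, 3 and 1 after ethanol (12.4% and 15.4%) and 4 and 1 after water (8.38% and 11.3%) against before the pretreatment, and 1 was lower at 13 against 10 DAD in water-treated plants (37.1%). The other pathway genes were then 12 higher and 12 lower with ethanol at 13 DAD (21.3% and 19.4%). By library total alone, 1 member was higher at 10 against 0 DAD in ethanol-treated plants, where 1725 of all genes were called higher, against 971 with TMM scaling. In the same plants 3 members were higher at 13 against 10 DAD by library total. With that scaling 4 members, against 5, were lower with ethanol at 13 DAD, and 8 of the other pathway genes were higher and 3 lower. Of all genes 2243 were then called higher and 457 lower. With all 7 groups in one fit, 1 member was higher at 10 against 0 DAD in ethanol-treated plants. In that fit 6 members, against 7, were higher at 13 against 0 DAD in water-treated plants, with P5CR at 1.0 and no longer called. With genes of at least 1 count, 2 members were higher at 13 against 10 DAD in ethanol-treated plants. Counts of this section that stand without a share of all genes show no excess by themselves.

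Leaving out libraries 4 and 5 of 10 DAD, chosen after the data were seen, gave 2 higher and 1 lower at 13 against 10 DAD in ethanol-treated plants, and 31 genes higher and 88 lower, against 4 and 7, between ethanol and water at 10 DAD. Leaving out 1 library at a time gave 4 to 5 members lower with ethanol at 13 DAD, 6 to 7 higher at 13 against 0 DAD after water, and after ethanol 1 to 3 higher and 0 to 1 lower at 13 against 10 DAD and 2 to 3 higher at 13 against 0 DAD. The other pathway genes gave 5 to 6 higher and 3 to 5 lower with ethanol at 13 DAD, 16 to 17 and 14 to 15 at 13 against 0 DAD in water-treated plants and 14 to 19 and 11 to 16 in ethanol-treated plants. On CPM, members without overlap were 0 higher with ethanol at 0 DAD (1 on normalized counts; all genes 1.55% on CPM and 1.53% on normalized counts), 3 higher at 10 against 0 DAD in water-treated plants (1; 17.9% and 13.6%), and in ethanol-treated plants 4 higher at 10 against 0 DAD (2; 23.5% and 14.3%) and 0 lower at 13 against 0 DAD (1; 21.5% and 28.5%).

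Replicate numbers are shared between groups. Same-numbered libraries deviated together at correlations of -0.42 to 0.22, and in no comparison were all 5 over 0.1. With only 5 correlations a comparison, these values cannot decide whether the number marks a condition that libraries shared. In both pretreatments the same replicate numbers had the lowest green-tissue marker sums at 10 DAD. Whether same-numbered libraries shared a condition was not tested. With a replicate block 2 members were higher at 13 against 10 DAD and 2 at 13 against 0 DAD in ethanol-treated plants, and the other counts of members were as without it. The cause of these changes was not tested. ProDH2 had 14 to 194 and ProDH1 17 to 362 raw counts a library, which limits the precision of both.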
